A study of Drosophila melanogaster with 2 samples.

Results

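The E(spl) complex bHLH genes are 7 neighbouring genes on arm 3R of Drosophila melanogaster, and here they were examined for binding of a luna-GFP fusion protein. The members E(spl)mdelta-HLH, E(spl)mgamma-HLH, E(spl)mbeta-HLH, E(spl)m3-HLH, E(spl)m5-HLH, E(spl)m7-HLH and E(spl)m8-HLH were found by gene name in the annotation, and are 7 of 13945 protein-coding genes. The region studied runs from the first to the last member with 5 kb added on each side, chr3R:25992621-26046008 in dm6, a length of 53.4 kb. It held 4 of 1696 IDR peaks. These form the authors' list thresholded by IDR (irreproducible discovery rate), a measure of how ranks repeat between replicates. That list consists of the 1696 strongest candidates of both replicates pooled. The region also held 12 of 21725 candidates of the pooled list, 14 of 30000 candidates of replicate 1 and 18 of 30000 candidates of replicate 2. The pooled list is titled as peaks and background for IDR input, so a pooled candidate need not be a called peak.

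The material was a single group of 2 biological replicates, with no other genotype or treatment. Embryos of both sexes were pooled at 0 to 24 h of age, from the strain luna-MiMIC-GFP, whose luna gene carries an added GFP exon within an intron, and all chromatin was precipitated with an antibody to GFP. Luna is a KLF family transcription factor that binds DNA through zinc fingers. Stages and cell types are mixed in whole embryos, so a peak names no cell type, and no control sample was analysed here. Each value below is the authors' own signal score for an interval, whose scale and read depth are unknown, and a rank of 1 is the strongest score in its own list. The scores of different lists are not on a shared scale.

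Genes of the E(spl) complex are known as direct targets of Notch signalling. When the receptor Notch is activated, its intracellular part joins the DNA-binding protein Su(H), and Su(H) sites near the genes of the complex drive expression. The bHLH members then repress proneural genes with the corepressor Groucho, whose gene gro lies beside E(spl)m8-HLH, and so hold cells back from the neural fate during lateral inhibition. The complex also holds Bearded family (BFM) genes, whose proteins antagonise the ubiquitin ligase Neuralized, a factor that activates Notch ligands.

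The 4 reproducible peaks of the region lay between the members and at gro, and none overlapped a bHLH gene body. The stretches at their summits are shown because they mark where the IDR peaks of the complex are centred. They are the plus strand of dm6 from the RefSeq copy of Release 6, 100 bases on each side of the summit, cut short where an annotated 5′ UTR begins. Capitals mark matches to the searched motifs, which here were the GAGA element GAGAG, the TATA box TATAAA and the pentamer CGATA. The peak between E(spl)mbeta-HLH and E(spl)malpha-BFM is chr3R:26009027-26009227, the peak upstream of E(spl)m3-HLH is chr3R:26021346-26021546, the peak upstream of gro is chr3R:26041562-26041735 and the peak in the gro intron is chr3R:26042456-26042640.
E(spl)mbeta-HLH to E(spl)malpha-BFM peak: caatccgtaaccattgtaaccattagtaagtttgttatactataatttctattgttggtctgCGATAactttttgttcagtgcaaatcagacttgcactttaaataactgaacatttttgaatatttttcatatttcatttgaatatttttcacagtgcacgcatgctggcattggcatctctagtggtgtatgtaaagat
E(spl)m3-HLH upstream peak: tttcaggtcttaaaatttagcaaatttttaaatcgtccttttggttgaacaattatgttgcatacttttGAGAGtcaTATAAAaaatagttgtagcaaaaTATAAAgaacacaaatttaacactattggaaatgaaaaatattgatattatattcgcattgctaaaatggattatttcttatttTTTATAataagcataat
gro upstream peak: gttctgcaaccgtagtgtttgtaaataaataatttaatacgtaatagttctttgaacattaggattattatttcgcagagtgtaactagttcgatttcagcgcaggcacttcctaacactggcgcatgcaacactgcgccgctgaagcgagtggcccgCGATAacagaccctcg
gro intron peak: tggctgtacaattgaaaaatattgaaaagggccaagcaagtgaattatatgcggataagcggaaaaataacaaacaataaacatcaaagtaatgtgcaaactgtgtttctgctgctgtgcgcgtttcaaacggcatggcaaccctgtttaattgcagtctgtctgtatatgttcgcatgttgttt

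The strongest peak of the region was in gro, at 26042368 to 26042743. Its pooled signal was 137, rank 137 of 21725, and its signal was 64.2 in replicate 1, rank 151, and 70.8 in replicate 2, rank 154. The summit lay in an intron, 85 bp upstream of the gro start at 26042641, one of 4 annotated transcription start sites (TSSs) of that gene. A further peak, at 26041474 to 26041849, had its summit 74 bp upstream of the first gro TSS and a pooled signal of 75.9, rank 593. It scored 40.4 in replicate 1, rank 451, and 35.4 in replicate 2, rank 906. Replicate 2 also listed a weaker interval that overlaps it, with its summit at 26041861, a signal of 10.8 and rank 15268. Both gro peaks were thus near starts of that gene, and they stood 894 bp apart.

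The third peak lay upstream of E(spl)m3-HLH, at 26021258 to 26021633. Its pooled signal was 73.8, rank 629, with 37.8 in replicate 1, rank 518, and 37.1 in replicate 2, rank 800. The summit was 377 bp upstream of the TSS of E(spl)m3-HLH and 370 bp upstream of the TSS of lncRNA:CR43644, a non-coding RNA gene that starts on the other strand. By the nearest TSS the peak was therefore assigned to lncRNA:CR43644, and by the nearest protein-coding TSS to E(spl)m3-HLH. In replicate 2 the summit was 373 bp from the lncRNA start and 374 bp from the E(spl)m3-HLH start. In replicate 1 these distances were 323 bp and 424 bp. The peak sits in the space between both genes, and the data do not assign it to one of them.

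The fourth peak, at 26008939 to 26009314, was intergenic, with a pooled signal of 68.1 and rank 757. It scored 34.6 in replicate 1, rank 641, and 32.3 in replicate 2, rank 1131. Its summit lay 1766 bp upstream of E(spl)malpha-BFM, a Bearded family gene, and 3104 bp upstream of E(spl)mbeta-HLH, the nearest bHLH member. It was the strongest of a local group of candidates. Replicate 2 listed a second, weaker interval that overlaps it, with its summit at 26009279, a signal of 16.8 and rank 5190. The pooled list also held summits at 26008169, with a signal of 29.9 and rank 4310, and at 26008370, with 23.0 and rank 8010. Both lay within 250 bp of the same candidate in each replicate. Their nearest TSS was that of the non-coding RNA gene lncRNA:CR45039, 1096 and 1297 bp away. A summit 11 bp downstream of the E(spl)malpha-BFM start, with a signal of 23.1 and rank 7884, had a counterpart in replicate 2 and none in replicate 1. The deposited −log10 q-value was 3.57 for the 4 IDR peaks, as for every IDR peak, and 0.0197 to 0.920 for the other 8 pooled candidates of the region, so those are weak candidates.

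**Figure D1:**
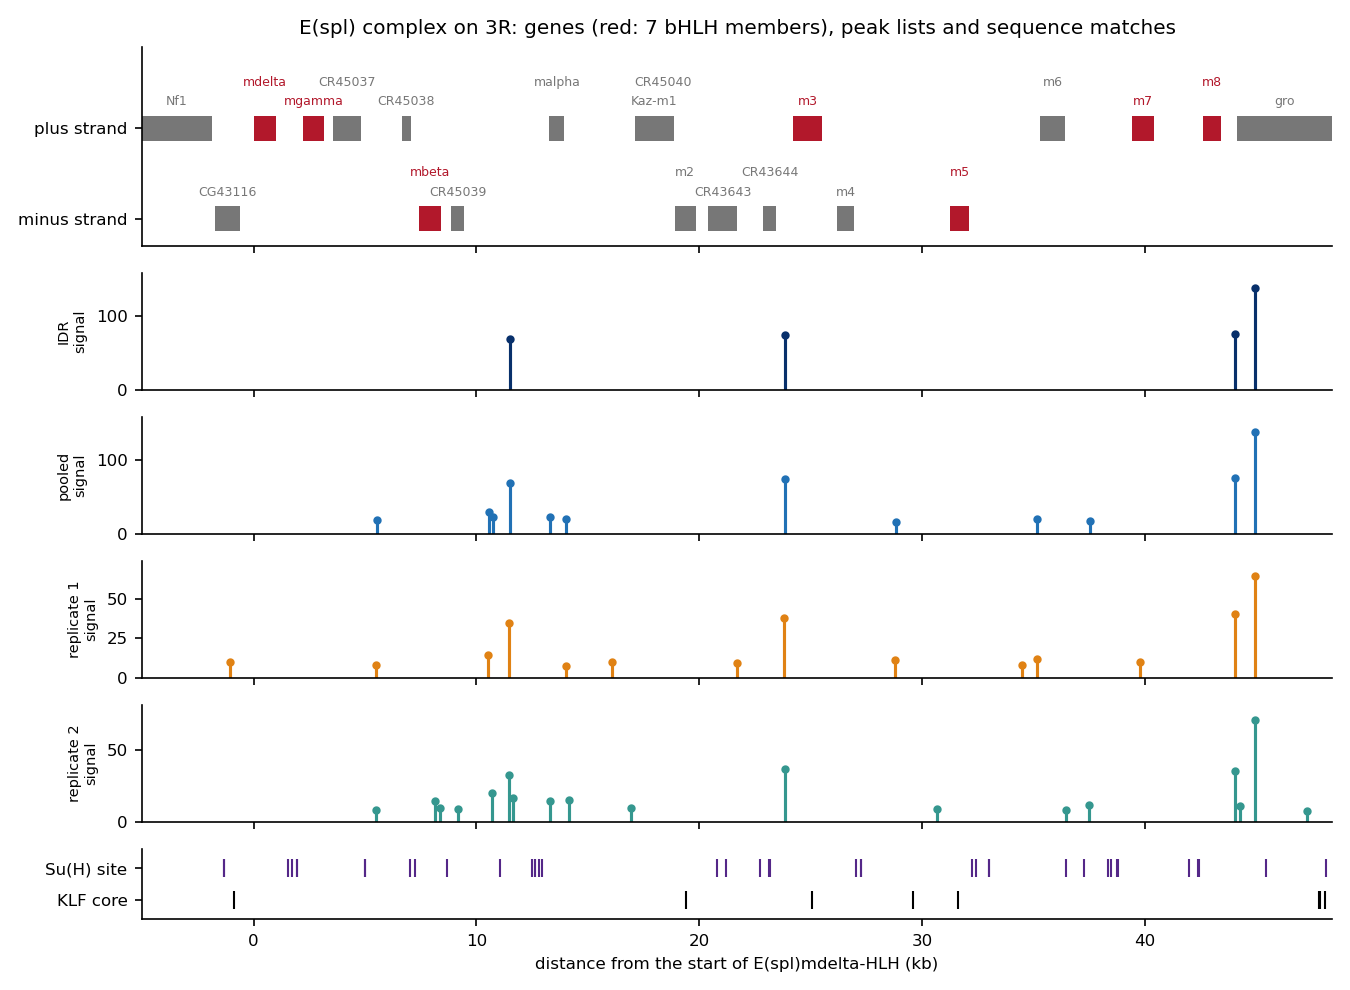
Map of the region by distance in kb from the start of E(spl)mdelta-HLH, with genes by strand on top (bHLH members in red), the authors' signal score at each summit in the IDR, pooled and both replicate lists, and matches to the Su(H) site and the KLF core below. Each of the 4 IDR peaks has a summit within 47 bp in both replicates, and the gro intron peak is the highest in each list.

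Between replicates, the 4 peaks differed in rank about as much as IDR peaks elsewhere. The larger of the replicate ranks was 1.02 to 2.01 times the smaller, with a median of 1.65. The median was 1.79 over the 1689 IDR peaks of all arms found in both replicates. Of the IDR peaks elsewhere found in both, 57.9% had a ratio of 2.01 or less. All 4 peaks of the region had the better rank in replicate 1, the gro intron peak only by 151 against 154. How often this holds over all IDR peaks was not counted. The IDR list consists of the 1696 strongest pooled candidates, so a good rank in each replicate is partly given by that choice.

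**Figure D2:**
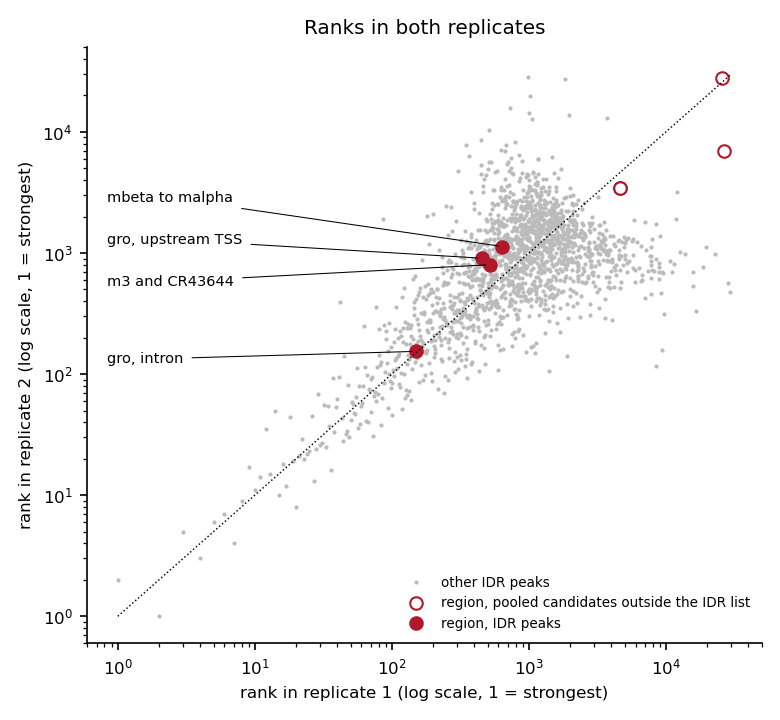
Rank in replicate 1 on the x axis and in replicate 2 on the y axis (log scales, 1 is the strongest) for the region's IDR peaks (filled red), its other pooled candidates found in both replicates (open red, with 4 candidates of which a pair shares its matches) and the IDR peaks elsewhere (grey). The gro intron peak, at ranks 151 and 154, lies on the line of equal rank.

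Among the bHLH members, E(spl)m3-HLH was the single gene with an IDR summit within 500 bp of its TSS. That is 1 of 7 members, against 10.7% of all protein-coding genes, so the share in the complex is near the background. In the pooled list it was also 1 of 7, again E(spl)m3-HLH, against 45.9% of all protein-coding genes. In replicate 1 the count was 2 of 7 against 47.1%, and in replicate 2 it was 2 of 7 against 51.9%. The added gene was E(spl)m7-HLH in replicate 1 and E(spl)mbeta-HLH in replicate 2, so E(spl)m3-HLH was the 1 member with a promoter candidate in both replicates. With 7 genes these shares were not tested.

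The members from E(spl)mdelta-HLH to E(spl)mbeta-HLH hold the left end of the complex. E(spl)mdelta-HLH, on the plus strand from 25997621 to 25998633, had its nearest pooled summit 5529 bp away, the largest distance of the 7. E(spl)mgamma-HLH, on the plus strand from 25999851 to 26000761, had its nearest pooled summit at 3299 bp. For both this was the same weak candidate at 26003150, with a signal of 18.6 and rank 13863. The TSS nearest to that candidate was that of the non-coding RNA gene lncRNA:CR45038, 1128 bp away. The left 10341 bp of the region, which include both genes, held no pooled candidate. A candidate of replicate 1 alone lay in an intron of CG43116, 1047 bp upstream of E(spl)mdelta-HLH, with a signal of 10.2 and rank 13473.

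E(spl)mbeta-HLH, on the minus strand from 26005046 to 26006023, differed between the replicates. In replicate 2 a summit lay in its coding exon, 271 bp downstream of the TSS, with a signal of 14.7 and rank 7202, and a further one in its 5′ UTR, 43 bp downstream, with 9.91 and rank 18336. Replicate 1 held no candidate within 250 bp of either, and its nearest summit was 2135 bp upstream, with a signal of 14.6 and rank 4603. The nearest pooled summit, at 2146 bp, is the counterpart of that one. The −log10 q-values of both replicate 2 candidates were low, at 0.729 and 0.164.

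On the right, E(spl)m3-HLH spans 26021823 to 26023127 on the plus strand, and E(spl)m5-HLH spans 26028854 to 26029735 on the minus strand. E(spl)m5-HLH had no summit within 1000 bp of its TSS in any list, and its nearest pooled one was 3022 bp away, with a signal of 19.7 and rank 11938. E(spl)m7-HLH, on the plus strand from 26037038 to 26038019, had its nearest pooled summit 1910 bp upstream, with a signal of 17.1 and rank 17030. In replicate 1 a summit lay in its coding exon, 359 bp downstream of the TSS, with a signal of 9.81, rank 14918 and a −log10 q-value of 0.129, and replicate 2 had none within 1000 bp of the TSS. E(spl)m8-HLH, on the plus strand from 26040240 to 26041008, had the gro upstream peak as its nearest summit in all lists, 1421 to 1422 bp downstream of its TSS and beyond its 3′ end. All 7 members have a single exon, so none has an intron to hold a peak.

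In order of pooled distance from TSS to summit, E(spl)m3-HLH was nearest with 377 bp, followed by E(spl)m8-HLH with 1422, E(spl)m7-HLH with 1910, E(spl)mbeta-HLH with 2146, E(spl)m5-HLH with 3022, E(spl)mgamma-HLH with 3299 and E(spl)mdelta-HLH with 5529. E(spl)m3-HLH and E(spl)m8-HLH had nearly the same distances in each replicate, from the same peaks. For E(spl)mgamma-HLH the nearest summits were different candidates, at -3277 bp in replicate 1 and 3257 bp downstream in replicate 2. E(spl)mdelta-HLH had 1047 bp in replicate 1 and 5487 bp in replicate 2, E(spl)mbeta-HLH 2135 and 43 bp, E(spl)m5-HLH 2367 and 1438 bp, and E(spl)m7-HLH 359 and 1925 bp, so their order differed between the replicates. The median over the members was 2146 bp in the pooled list, against 673 bp over all protein-coding genes. For IDR peaks the median was 4624 bp in the members, against 18135 bp over all protein-coding genes. Members share peaks, so these are not 7 separate measurements.

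**Figure D3:**
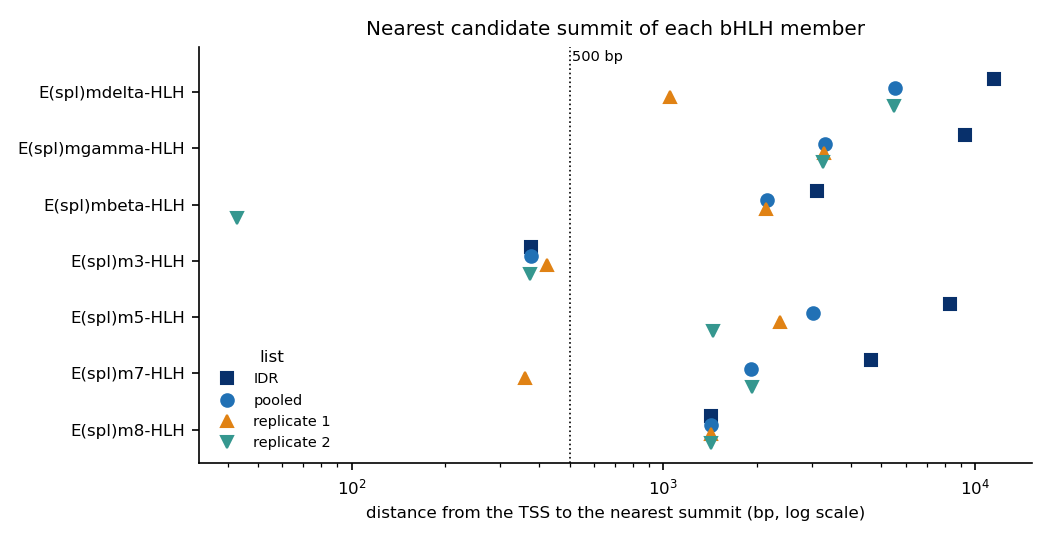
Distance in bp (log scale) from the TSS of each bHLH member to its nearest summit in the IDR, pooled, replicate 1 and replicate 2 lists, with a dotted line at 500 bp. E(spl)m3-HLH is left of the line in all 4 lists, E(spl)mbeta-HLH in replicate 2 alone and E(spl)m7-HLH in replicate 1 alone.

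The E(spl)m3-HLH peak was near the middle of promoter IDR peaks in strength and farther upstream than most. Of 1493 protein-coding genes with an IDR summit at the promoter, 601 or 40.3% had a stronger one, and the median signal was 67.4. The median summit position relative to the TSS was -109 bp. A position of 377 bp or more upstream was found for 72 genes, or 4.82%, E(spl)m3-HLH among them.

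**Figure D4:**
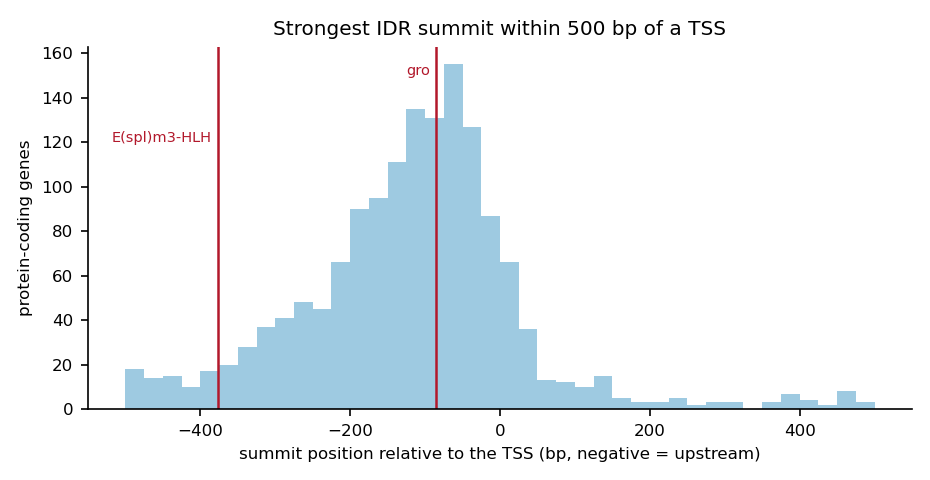
Number of protein-coding genes by position of their strongest IDR summit within 500 bp of a TSS, in bp, with negative values upstream. The red lines mark gro, 85 bp upstream and near the middle of the distribution, and E(spl)m3-HLH, 377 bp upstream in its tail.

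The other protein-coding genes between the members had no IDR summit at the promoter. Of the 4 Bearded family genes, E(spl)malpha-BFM had the pooled summit already given. E(spl)m6-BFM had one 154 bp upstream of its TSS, with a pooled signal of 19.7 and rank 11938, and a signal of 12.1 and rank 8098 in replicate 1 with no counterpart within 250 bp in replicate 2. E(spl)m2-BFM and E(spl)m4-BFM had none within 500 bp in any of the 4 lists. Kaz-m1, the gene also called E(spl)m1, had one in replicate 2 alone, 181 bp upstream, with rank 17882. The neighbour to the left, Nf1, which encodes a regulator of Ras, starts outside the region.

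By length, the region had 7.49 IDR peaks per 100 kb, against 1.28 in the rest of 3R, and 22.5 pooled candidates per 100 kb, against 16.5. Without the flanks, and thus without both gro peaks, 2 IDR peaks remained, or 4.61 per 100 kb. The region also had more TSSs, with 43.1 per 100 kb against 17.0 in the rest of 3R. Of the 12 pooled candidates 4 were in the IDR list, against 7.81% of all pooled candidates. Without the flanks this was 2 of 10. The counts are small and were not tested, and the part of TSS density in them was not tested. The median pooled signal was 23.1 in the region, against 20.4 over the whole list. Of the 12, 8 had a summit within 250 bp in both replicates, 2 in replicate 1 alone and 2 in replicate 2 alone. In replicate 1, 5 of the 14 candidates had no pooled counterpart within 250 bp, and in replicate 2 this was so for 7 of 18. The replicate lists are longer than the pooled list. Shares of matched candidates were not computed over the whole lists, so these counts do not set the region apart.

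Upstream sequences of the members were compared with the summits for the sites that each factor is known to use. The 250 bases before the TSS of E(spl)m8-HLH and E(spl)m5-HLH are shown since they hold Su(H) sites. Those of E(spl)m3-HLH are shown since a reproducible peak lies further upstream, between this gene and lncRNA:CR43644. All stretches read 5′ to 3′ on the strand of the gene and end at the base before the TSS, in RefSeq Release 6. Capitals mark the Su(H) sites TGTGAGAA, TGTGGGAA, CGTGAGAA and CGTGGGAA on either strand and the TATA box TATAAA. The stretches are chr3R:26039990-26040239 for E(spl)m8-HLH, chr3R:26029736-26029985 on the minus strand for E(spl)m5-HLH and chr3R:26021573-26021822 for E(spl)m3-HLH.
E(spl)m8-HLH: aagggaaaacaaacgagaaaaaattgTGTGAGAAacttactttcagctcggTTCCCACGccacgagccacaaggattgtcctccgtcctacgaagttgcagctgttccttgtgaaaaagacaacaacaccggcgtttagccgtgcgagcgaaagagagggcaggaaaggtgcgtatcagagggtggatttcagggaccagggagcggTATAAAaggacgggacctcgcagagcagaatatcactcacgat
E(spl)m5-HLH: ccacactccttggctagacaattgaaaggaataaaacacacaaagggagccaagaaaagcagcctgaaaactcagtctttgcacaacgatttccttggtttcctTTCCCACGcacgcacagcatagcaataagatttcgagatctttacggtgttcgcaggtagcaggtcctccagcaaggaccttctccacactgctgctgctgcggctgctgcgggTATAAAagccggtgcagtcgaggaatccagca
E(spl)m3-HLH: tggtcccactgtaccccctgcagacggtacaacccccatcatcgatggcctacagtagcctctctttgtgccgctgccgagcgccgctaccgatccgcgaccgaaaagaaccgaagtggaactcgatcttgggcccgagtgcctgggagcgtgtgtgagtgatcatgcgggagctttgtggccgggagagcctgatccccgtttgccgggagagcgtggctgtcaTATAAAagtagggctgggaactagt

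The region held more Su(H) sites per length than the arm, with 40 matches or 0.749 per kb, against 0.105 per kb over 3R. Of these, 15 lay within 1000 bp upstream of the nearest member. E(spl)m5-HLH and E(spl)mgamma-HLH had 4 each within 1000 bp upstream, E(spl)m7-HLH and E(spl)m8-HLH had 3 each, E(spl)mbeta-HLH had 1, and E(spl)m3-HLH and E(spl)mdelta-HLH had 0. The nearest upstream match of E(spl)m3-HLH lies just past that limit, at -1047 bp from its TSS and 670 bp from the IDR summit. Within 250 bases 2 of 7 members had a match, against 2.54% of all protein-coding genes. The nearest of the 40 matches was 225 bp from a pooled summit and 444 bp from an IDR summit. Pooled intervals cover 8.12% of the region. Over all arms 2.05% of windows of 100 bases on each side of a pooled summit held a match, and 0 of 12 in the region did. The count is near that share, but the share does not reflect the higher site density of the region. The number of matches that this density would give was not computed. In replicate 2 a match lay 11 bp from the summit of a weak candidate at 26034057, with a signal of 8.01 and rank 28018.5, which has no pooled counterpart.

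The KLF core, searched as CACACCC or CACGCCC on both strands, was sparse in the region, with 8 matches or 0.150 per kb against 0.269 per kb over 3R. The nearest to a pooled summit was 795 bp away, and a match lay in an interval of replicate 1 alone, 174 bp from its summit in the CG43116 intron. The core was in 0 of 4 IDR windows, against 2.42% of all IDR windows, in 0 of 12 pooled windows, against 4.95%, and in 0 of 7 upstream stretches of members, against 2.83% of genes. These counts are near the low shares of the background, and nothing follows from them about luna.

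Further motifs were counted in the same stretches. The TATA box was in 5 of 7 stretches, against 43.0% of genes, at 25 to 43 bases before the TSS. The GAGA element GAGAG was in 5 of 7, against 25.7%, and the N-boxes CACAAG or CACGAG, which bHLH repressors of this type are known to bind, in 4 of 7, against 13.1%. The Hes-type sites CACGTG or CACGCG were in 2 of 7, against 6.78%. The E-boxes CAGGTG and CAGCTG, sites of proneural factors, were in 1 of 7 each, against 7.89% and 13.4%, and the Zelda site CAGGTAG in 1 of 7, against 209 of 13945 genes. The Dref element TATCGATA was in 0 of 7, against 1115 of 13945 genes, and CGATA, which it contains, in 0 of 7, against 42.6%. In the IDR windows of the region, CGATA was in 2 of 4, against 36.7% of all IDR windows, and TATAAA and GAGAG in 1 of 4 each, against 28.3% and 24.4%.

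The 250 bases upstream of members had 54.2% GC, against 38.3% for all protein-coding genes. The 4 IDR windows of the region had 34.8%, against 38.1% for all IDR windows. At E(spl)m3-HLH the summit window had 22.4% and the stretch next to the TSS had 60%. All TATAAA matches at the IDR summits were in this AT-rich window, and the part of base composition in the motif counts was not tested.

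In the Notch pathway list, 5 of 24 genes had a promoter IDR peak, a share of 20.8% against 10.7% of all protein-coding genes. The list holds gro and the other genes of the complex but no bHLH member. The receptor gene N had a pooled signal of 71.7 and rank 676, with its summit at -289 bp from the TSS. The gamma-secretase subunit gene aph-1 had 89.0 and rank 412, and gro had 137 and rank 137. The antagonist gene numb had 58.4 and rank 1045, and the ubiquitin ligase gene Su(dx) had 49.9 and rank 1459. The aph-1 summit, at -270 bp, was also at -298 bp from the TSS of Snx21. The Su(dx) summit, at -119 bp, was also at -330 bp from that of lectin-22C. The data do not assign either peak to a single gene. In the pooled list 16 of 24 had a promoter summit, or 66.7% against 45.9%, with a median signal of 27.0 against 28.9 over all genes that have one. Su(H) itself had 39.9 and rank 2326, and Delta, which encodes a Notch ligand, had no promoter summit in any list. Among the 848 strongest IDR peaks, 3 genes of the list had a promoter summit. The share of all protein-coding genes at this cut was not computed.

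Shares over all protein-coding genes, 10.7% with a promoter IDR peak and 45.9% with a pooled summit, also stand beside 3 short lists, and lists of this size with 0 IDR peaks are near that background. Of 6 other HES and HEY type bHLH genes, 0 had an IDR summit and 2 a pooled one, hry (hairy) with 19.9 and rank 11762 and cwo (clockwork orange) with 31.8 and rank 3787. Of 4 matched Bearded complex genes, 0 had either, and of 9 proneural bHLH genes and partners 0 had an IDR summit and 3 a pooled one. These were emc, an inhibitor of proneural proteins, with 26.0 and rank 5936, da, their common partner, with 19.5 and rank 12357, and l(1)sc with 17.9 and rank 15469.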

How the data were processed

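Candidate regions of luna-GFP chromatin immunoprecipitation were taken from 4 deposited lists in dm6, namely those of replicates 1 and 2, of both pooled and of IDR peaks. By its title the pooled list holds peaks and background as input for IDR, so shares of genes with a pooled summit include background intervals. Per the deposited README texts, candidates were derived from alignments and a control file. The peak caller is not given in the sources used here. With each interval, the authors deposited a signal score, used for ranks within a list, and a −log10 q-value, which is 3.57 in every IDR peak and was not used to rank. The dm3 lists were not used. Read depth is unknown.

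The annotation was Ensembl release 115 (BDGP6, dm6 coordinates), without transposable elements, and sequence came from the RefSeq Release 6 assembly. Intervals overlapping the region by at least 1 bp were kept and their summits assigned to the nearest TSS. A promoter summit lay within 500 bp of any TSS of a gene, and the strongest counted. Motifs were counted on both strands in windows of 100 bases on each side of summits and in 250 bases upstream of the outermost TSS. Code in Python 3.11.15 with pandas 2.3.3 was tested on simulated intervals. No tests were made, as there is 1 group.

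Named genes are the members, protein-coding genes with a TSS in the region, and genes nearest to its peaks and to its strongest candidates. Non-coding RNA genes of the region are named only where nearest to such a peak or candidate. Also named are list genes with a promoter IDR peak, genes that share such a peak, and the 3 genes closest to E(spl)m3-HLH in ranks. Pooled promoter values of Su(H), Delta, hry, cwo, emc, da and l(1)sc were chosen after their values were seen. Members and lists were chosen with earlier results of these data known. Of the list symbols, BobB and BobC were not matched, and Dl, Side, h and E(spl)m1 were read as Delta, Sidpn, hry and Kaz-m1.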

Additional observations from a re-analysis of the deposited data

How the results depend on the processing

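Of 36 alternatives, 26 stayed within 1.5 times the reported value or, for the best rank, within the SD of the replicates, and 10 moved. Leaving out a replicate (the list of the other alone, cut to the same length) gave a best rank of 151 to 154 in place of 137. It gave 2 members with a promoter candidate (2 to 2) in place of 1, since E(spl)mbeta-HLH enters with replicate 2 and E(spl)m7-HLH with replicate 1. The count of members with a candidate in both replicates has no value with a replicate left out, so that alternative was not run. With a promoter of 250 bp 0 members had a promoter summit in the pooled list, 0 in the IDR list and 0 in both replicates, as the E(spl)m3-HLH summit lies 377 bp away. Without flanks the region held 2 IDR peaks and its best rank was 629, since both gro peaks fall outside. The stronger 848 IDR peaks left 3 genes of the Notch list. Shares over all protein-coding genes were not computed for the alternatives, so these counts have no background beside them. No paired analysis was possible because there is a single group. Depth is unknown, so an absent candidate says that none was listed, not that nothing was bound.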

Other observations

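By strength in the pooled list and both replicates, the protein-coding genes outside the region most like E(spl)m3-HLH, with ranks of 629, 518 and 800 in the pooled list, replicate 1 and replicate 2, were CG31957, with ranks of 624, 543 and 819, and Kap-alpha3 and Son, which share a peak with ranks of 616, 569 and 802. The measure was the Euclidean distance on log10 rank over these 3 lists, 0.023 for CG31957 and 0.042 for the others, among 4838 genes with a promoter summit in each list.

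The best promoter summit of neur, which encodes the ubiquitin ligase Neuralized, had rank 720 in replicate 1, at -339 bp from the TSS, and 10213 in replicate 2, at -176 bp. For emc the best summits were different ones, with rank 7096 in replicate 1, 262 bp downstream of the TSS, and rank 890 in replicate 2, at -116 bp. These genes were chosen after their values were seen.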
